A study of Mus musculus with 24 samples.

Results

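A set of 7 genes that encode the second layer of the liver clock were followed across the study: Nr1d1 (ENSMUSG00000020889), Nr1d2 (ENSMUSG00000021775), Rora (ENSMUSG00000032238), Dbp (ENSMUSG00000059824), Tef (ENSMUSG00000022389), Hlf (ENSMUSG00000003949) and Nfil3 (ENSMUSG00000056749). They were chosen by name, as the REV-ERB, ROR, PAR-bZIP and NFIL3 factors, and are 7 of the 56941 genes in the table. All 7 passed the filter on low counts that left 20514 genes tested. Polyadenylated liver RNA was sequenced in 24 mouse libraries with a stranded kit, 3 libraries for each of 8 groups. Global Bmal1 knockouts (KO) and wild-type mice (WT), bred from Bmal1+/- parents on C57BL/6J, were sampled at circadian times CT14 and CT2, early in the subjective night and early in the subjective day. Liver-specific knockouts (LKO, Alb-Cre;Bmal1f/f) and mice with the same floxed alleles but no Cre (F, Bmal1f/f) were sampled at the same times. Albumin-Cre acts chiefly in hepatocytes, so the other cell types of an LKO liver keep Bmal1. Whether the 3 libraries of each group are different animals is not stated, and if they are not, the p-values reflect only the spread between these samples, which may be technical.

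BMAL1 pairs with CLOCK and activates genes through E-boxes, among them Nr1d1, Nr1d2 and Dbp. Nr1d1 and Nr1d2 encode REV-ERB alpha and beta, heme-binding nuclear receptors that recruit a corepressor complex to ROR response elements (ROREs) and repress Bmal1 itself. Rora encodes ROR alpha, an activator that binds the same elements. Dbp, Tef and Hlf encode the PAR-bZIP activators of D-boxes, which drive detoxification genes in liver, and Nfil3 encodes a bZIP repressor of the same sites and is itself a REV-ERB and ROR target.

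Promoter letters are shown for the 3 members in which an E-box, D-box or RORE pattern stood close before the annotated start. All 7 members matched RefSeq promoters (build GRCm38.p6), 8 promoters in all because Tef has 2 starts. The 250 bases before each start were searched on both strands, and the 200 bases before the start are printed 5' to 3' on the gene's strand, with matches in capitals.
Nr1d1, chr11:98775378-98775577, - strand: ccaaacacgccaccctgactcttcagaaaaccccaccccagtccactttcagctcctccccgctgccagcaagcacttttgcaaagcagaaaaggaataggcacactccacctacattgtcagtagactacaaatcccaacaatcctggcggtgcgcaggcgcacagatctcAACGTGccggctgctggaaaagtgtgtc
Tef start 1, chr15:81802473-81802672, + strand: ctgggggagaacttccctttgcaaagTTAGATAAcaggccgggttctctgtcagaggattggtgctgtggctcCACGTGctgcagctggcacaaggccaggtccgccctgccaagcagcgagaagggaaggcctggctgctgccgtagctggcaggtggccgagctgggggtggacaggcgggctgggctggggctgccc
Tef start 2, chr15:81811214-81811413, + strand: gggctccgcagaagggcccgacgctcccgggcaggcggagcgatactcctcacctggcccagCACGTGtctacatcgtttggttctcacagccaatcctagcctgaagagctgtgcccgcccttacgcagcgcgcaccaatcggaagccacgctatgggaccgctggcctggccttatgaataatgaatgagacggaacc
Nfil3, chr13:52981040-52981239, - strand: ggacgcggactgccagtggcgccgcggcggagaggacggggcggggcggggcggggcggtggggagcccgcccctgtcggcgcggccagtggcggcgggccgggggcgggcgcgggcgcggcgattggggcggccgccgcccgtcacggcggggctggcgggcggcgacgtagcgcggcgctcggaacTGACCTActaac
The E-box letters CACGTG stood in both Tef promoters, at -127 to -122 before the first start and at -138 to -133 before the second, and in 6.02% of the 32851 promoters searched. The variant CACGTT stood in the Nr1d1 promoter at -28 to -23 on the opposite strand, where the printed strand reads AACGTG, and in 3.85% of all promoters. The D-box letters TTANNTAA stood before the first Tef start at -174 to -167 and in 5.43% of all promoters. The RORE letters TAGGTCA stood in the Nfil3 promoter at -12 to -6 on the opposite strand, printed as TGACCTA, and in 2.23% of all promoters. The shorter AGGTCA, held by 14% of all promoters, overlapped that match in Nfil3 and stood alone in the Nr1d2 promoter at -77 to -72. The windows of Rora, Dbp and Hlf held none of these letters. Such matches describe the sequence and are not binding sites.

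Total counts ran from 88995259 to 131544733 per library. Bmal1, the targeted gene, averaged 7.39 ± 0.22 CPM (counts scaled to library size, with TMM factors) in KO and 31.9 ± 1.66 CPM in WT at CT2, and 7.37 ± 0.71 CPM in LKO and 28.5 ± 1.66 CPM in F (SD, n = 3 each). At CT14, where Bmal1 is low in control livers, it averaged 7.10 CPM in KO against 5.85 CPM in WT and 5.64 CPM in LKO against 9.54 CPM in F, so that time checks no label. Of the CT2 libraries, KO replicate 1, LKO replicate 3 and F replicate 3 stood apart by a low level of the Y-linked gene Ddx3y, at 9.61, 8.15 and 3.86 CPM, where the other 21 libraries of the study held 25.7 to 48.5 CPM. F replicate 3 held pancreatic acinar transcripts at both times, with a summed level of 7 markers of 558 CPM at CT14 and 2060 CPM at CT2, and no KO, WT or LKO library exceeded 102 CPM. The summed level of 6 spermatid markers reached 4.83 CPM in KO and 0.407 CPM in WT, and was 4.22 to 19.9 CPM in LKO and F. The summed level of 7 hepatocyte markers was 59600 to 80700 CPM in KO and 92000 to 108000 CPM in WT at CT14, and 64700 to 75300 CPM in LKO and 106000 to 137000 CPM in F. At CT2 it was 52100 to 87800 CPM in KO and 93200 to 114000 CPM in WT, and 64200 to 95700 CPM in LKO and 107000 to 120000 CPM in F. Its part in the results below was not tested, and in whole liver fewer cells of a type and less RNA per cell cannot be told apart.

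In KO livers the REV-ERB genes were lower than in WT at both times, Dbp and Tef were lower at CT14 and higher at CT2, and Rora, Hlf and Nfil3 were not called. In LKO livers Nr1d2 was lower than in F at CT14, and Dbp and Tef were higher at CT2. A call here is an adjusted p under 0.05 in edgeR over all genes tested. In KO against WT at CT14, 4 of 7 members were called, all lower, where 5.31% of all genes were called and 2.15% were lower. At CT2, 4 of 7 were called, Dbp and Tef higher and Nr1d1 and Nr1d2 lower, where 0.517% of all genes were called, 0.327% higher and 0.19% lower. In LKO against F at CT14, 1 of 7, Nr1d2, was called lower, where 1.73% of all genes were called and 0.912% were lower. At CT2, 2 of 7, Dbp and Tef, were called, both higher, where 0.4% of all genes were called and 0.273% were higher. Without the 3 CT2 libraries that stood apart, the calls at CT2 were 2 in KO, Nr1d2 and Tef, and 1 in LKO, Tef. The median log2 fold change of the members against WT was -1.25 at CT14 and -0.06 at CT2 in KO, and against F -0.62 and -0.06 in LKO, beside medians of all genes between -0.01 and 0.01.

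**Figure D1:**
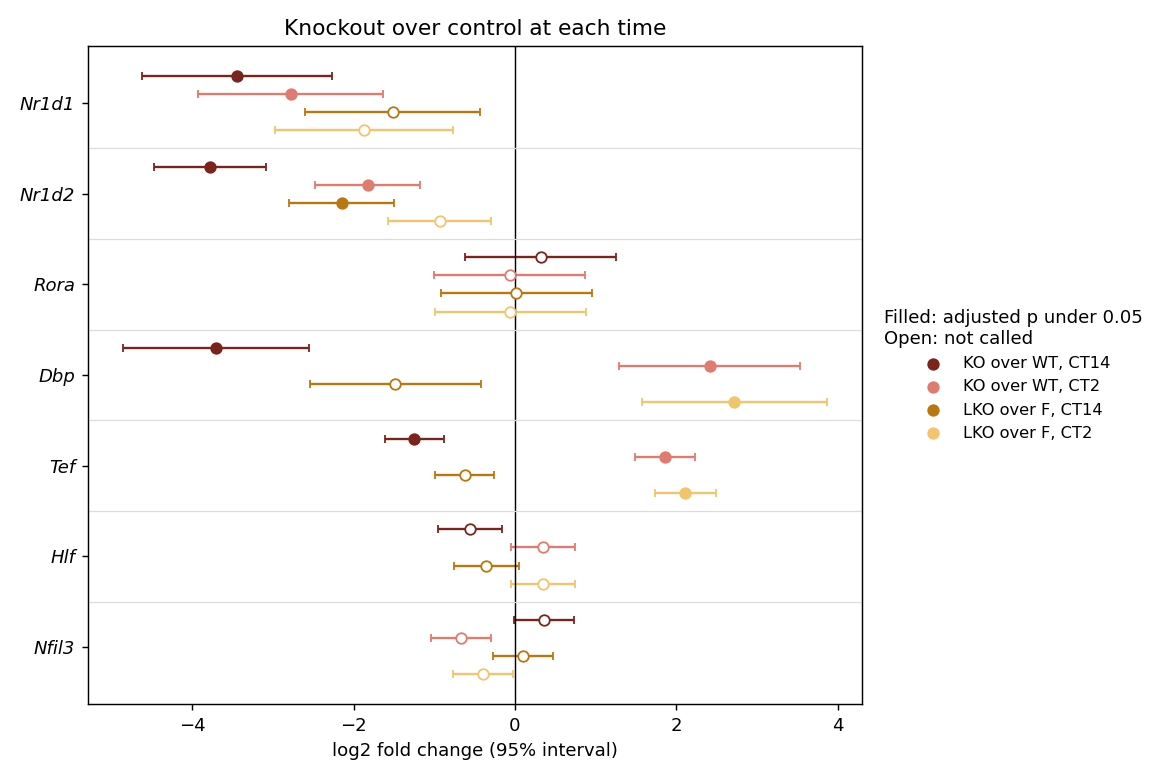
Log2 fold change (x axis) of each factor (rows), KO over WT and LKO over F at CT14 and CT2, with 95% intervals from edgeR on 3 libraries a group. Filled points were called. Nr1d1 and Nr1d2 lie below 0 in every comparison, Dbp and Tef lie below 0 at CT14 and above 0 at CT2, and the Rora intervals span 0.

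Nr1d2, which encodes REV-ERB beta, was lower in KO livers at both times. At CT14 Nr1d2 had 4.84, 2.11 and 3.93 CPM in KO, against 54.6, 49.9 and 44.6 CPM in WT. All 3 KO libraries lay far below all 3 WT libraries, a 13.7-fold lower level (log2 fold change -3.78 ± 0.34 SE, adjusted p = 6.09e-07, edgeR). At CT2 Nr1d2 had 2.27, 2.82 and 2.41 CPM in KO, against 9.20, 8.38 and 9.03 CPM in WT. The groups again did not overlap, and the level was 3.55-fold lower in KO (-1.83 ± 0.31, adjusted p = 0.00576, edgeR). Without KO CT2 replicate 1 that call was lost (-1.76, adjusted p = 0.0526, edgeR).

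In the liver-specific knockout, Nr1d2 at CT14 had 9.49, 7.86 and 8.02 CPM in LKO, against 43.7, 33.7 and 35.3 CPM in F. The groups did not overlap and the level was 4.44-fold lower (-2.15 ± 0.31, adjusted p = 0.000424, edgeR). At CT2 Nr1d2 had 5.69, 6.20 and 2.18 CPM in LKO, against 8.06, 12.0 and 6.80 CPM in F. The LKO libraries lay below the F libraries, but the difference was not called (-0.93 ± 0.30, adjusted p = 0.237, edgeR).

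Nr1d1, which encodes REV-ERB alpha, had its lowest group means in KO livers at both times. At CT14 Nr1d1 had 2.16, 1.33 and 2.21 CPM in KO, against 26.2, 18.7 and 17.1 CPM in WT. The groups did not overlap and KO was 10.9-fold lower (-3.45 ± 0.56, adjusted p = 0.000707, edgeR). At CT2 Nr1d1 had 1.41, 1.52 and 2.18 CPM in KO, against 7.09, 6.96 and 21 CPM in WT. The groups did not overlap, 1 WT library was about as high as the WT libraries of CT14, and KO was 6.87-fold lower (-2.78 ± 0.55, adjusted p = 0.022, edgeR). That call was lost without KO CT2 replicate 1, 2 or 3 (adjusted p = 0.145, 0.0867 and 0.0659, edgeR) and without the high WT CT2 replicate 3 (-2.05, adjusted p = 0.114, edgeR).

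Nr1d1 in LKO lay between the KO and control levels. At CT14 Nr1d1 had 5.16, 5.03 and 4.71 CPM in LKO, against 26.1, 7.55 and 8.99 CPM in F. At CT2 Nr1d1 had 2.48, 4.91 and 5.42 CPM in LKO, against 12.9, 6.55 and 27.4 CPM in F. Every LKO library lay below every F library of its time, and neither difference was called (-1.52 ± 0.52, adjusted p = 0.197 at CT14 and -1.87 ± 0.53, adjusted p = 0.151 at CT2, edgeR). Without the highest F library of each time, F CT14 replicate 1 and F CT2 replicate 3, the differences were -0.74 (adjusted p = 0.684) and -1.16 (adjusted p = 0.346, edgeR). Over the 8 groups Nr1d1 ran from 20.7 CPM in WT at CT14 down to 1.70 CPM in KO at CT2, and the 4 control groups overlapped in the order. That F CT2 replicate 3, at 27.4 CPM, is the library that held pancreatic transcripts and stood apart by Ddx3y.

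Nr1d1 overlaps Thra on the opposite strand, and Dbp overlaps Sphk2 in the same way, in GENCODE M21. Whether the authors' counting used the strand is not stated, so reads of such a pair cannot be told apart. Thra, the thyroid hormone receptor alpha gene, ranged from 9.32 to 37.5 CPM and went the other way from Nr1d1 at CT14, higher in KO than WT (1.11 ± 0.18, adjusted p = 7e-04, edgeR) and higher in LKO than F (0.79 ± 0.18, adjusted p = 0.0254, edgeR). Between the times, Thra was lower at CT14 than at CT2 in WT (-0.97 ± 0.18, adjusted p = 0.00346, edgeR) and in F (-1.03 ± 0.18, adjusted p = 0.00308, edgeR). It was not called in either knockout against its control at CT2, nor between the times in KO or LKO. Sphk2, at 31.8 to 66.5 CPM, was not called in any of 8 comparisons (adjusted p = 0.375 to 1, edgeR). Tef and Rora overlap the antisense genes Gm17597 and Gm15511.

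**Figure D2:**
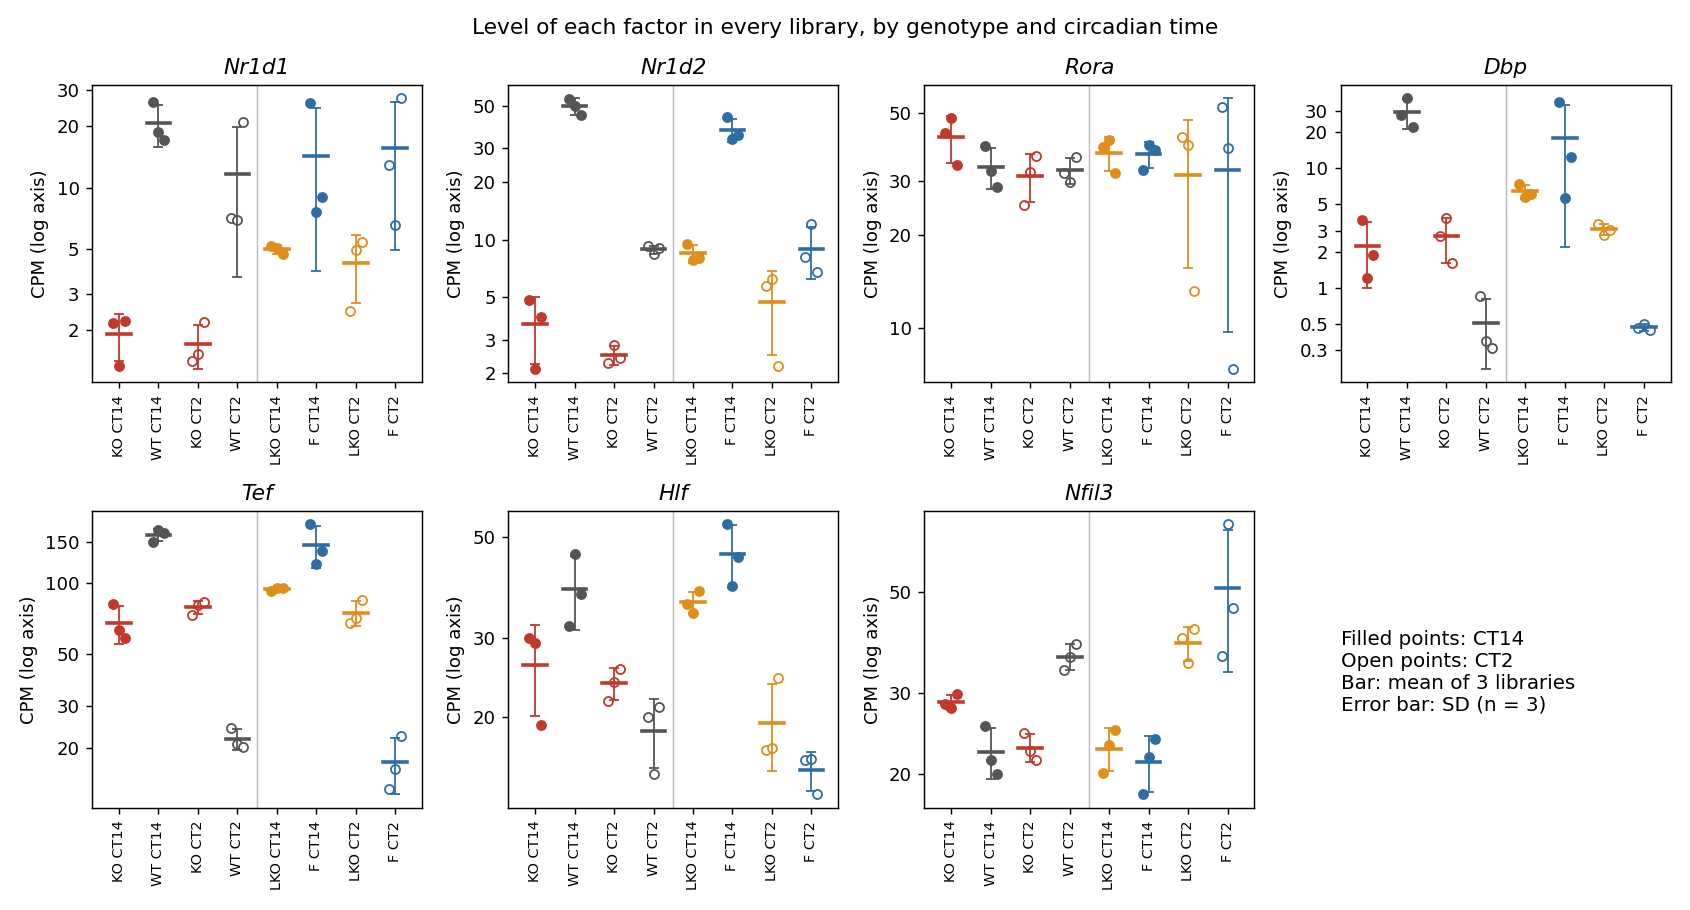
Level of the 7 factors in CPM (y axis, log scale, one panel a gene) in each library, by group (x axis), KO and WT left of the line and LKO and F right of it. Points are libraries (filled CT14, open CT2), bars the mean of 3 and error bars the SD. The open and filled WT and F points of Dbp and Tef lie far apart, while the KO points of both times lie together.

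Rora, the ROR alpha gene, had the narrowest spread of group means, from 31.2 to 41.8 CPM. At CT14 Rora had 43.1, 48.3 and 33.9 CPM in KO, against 39.0, 32.5 and 28.8 CPM in WT. At CT2 Rora had 25.2, 32.1 and 36.3 CPM in KO, against 32.0, 29.8 and 35.9 CPM in WT. The groups overlapped at both times, with differences of 0.32 ± 0.45 (95% interval -0.62 to 1.26) and -0.06 ± 0.45 (95% interval -0.998 to 0.874), not called (adjusted p = 0.819 and 1, edgeR). In LKO it had 38.8, 40.9 and 31.9 CPM against 32.7, 39.5 and 38.1 CPM in F at CT14, and 41.8, 39.5 and 13.2 CPM against 52.5, 38.5 and 7.35 CPM at CT2. The 2 low values belong to LKO CT2 replicate 3 and F CT2 replicate 3, 2 of the libraries that stood apart. Without those and KO CT2 replicate 1, the LKO difference at CT2 was -0.15 ± 0.19 and the KO difference 0.08 ± 0.17, neither called (adjusted p = 0.833 and 0.967, edgeR), with a smaller error. The main fit takes its spread from all 24 libraries, so the CT14 interval above also includes the spread of the 2 low libraries. In the authors' deposited table the KO difference at CT14 was 0.32 ± 0.20.

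Dbp, the PAR-bZIP activator with the largest difference between CT14 and CT2 in control livers, differed less between these times in both knockouts. At CT14 Dbp had 3.65, 1.21 and 1.89 CPM in KO, against 27.7, 38.3 and 22.0 CPM in WT. The groups did not overlap and KO was 13-fold lower (-3.71 ± 0.55, adjusted p = 0.000289, edgeR). At CT2 Dbp had 2.68, 3.81 and 1.62 CPM in KO, against 0.847, 0.360 and 0.311 CPM in WT. Here KO stood above WT with no overlap, 5.32-fold (2.41 ± 0.54, adjusted p = 0.0473, edgeR). That call was lost without KO CT2 replicate 1 or 2 (adjusted p = 0.142 and 0.142, edgeR) and without WT CT2 replicate 2 or 3 (0.22 and 0.226), while the difference stayed between 2.08 and 2.42.

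In LKO, Dbp at CT14 had 7.38, 5.72 and 6.07 CPM, against 35.5, 5.66 and 12.4 CPM in F. F replicate 2 lay under all 3 LKO libraries, and the difference was not called (-1.48 ± 0.51, adjusted p = 0.192, edgeR). Without that library it was -1.91 and called (adjusted p = 0.0463, edgeR), and without the high F replicate 1 it was -0.50 (adjusted p = 0.815, edgeR). At CT2 Dbp had 3.39, 2.75 and 3.06 CPM in LKO, against 0.456, 0.498 and 0.440 CPM in F. The groups did not overlap and LKO was 6.58-fold higher (2.72 ± 0.55, adjusted p = 0.0278, edgeR). That call was lost without F CT2 replicate 1, 2 or 3 (adjusted p = 0.119, 0.0932 and 0.0794, edgeR) or LKO CT2 replicate 1 or 2 (0.0777 and 0.0645), while the difference stayed between 2.64 and 2.79.

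Tef, a PAR-bZIP activator, had the highest mean share of the 3 in every group, at 51.4% or more of their summed TPM (scaled like CPM but also corrected for transcript length), although Hlf exceeded it in WT CT2 replicate 1 (50% against 46.2%) and F CT2 replicate 1 (49.7% against 46.7%). At CT14 Tef had 81.9, 63.0 and 58.3 CPM in KO, against 150, 169 and 163 CPM in WT. The groups did not overlap and KO was 2.37-fold lower (-1.25 ± 0.18, adjusted p = 0.000152, edgeR). At CT2 Tef had 72.9, 81.0 and 83.0 CPM in KO, against 24.3, 20.8 and 20.2 CPM in WT. Here KO was 3.63-fold higher with no overlap (1.86 ± 0.18, adjusted p = 1.51e-05, edgeR). At CT14 Tef had 92.6, 95.1 and 95.6 CPM in LKO, against 178, 121 and 137 CPM in F, and the groups did not overlap but the difference was not called (-0.62 ± 0.18, adjusted p = 0.0805, edgeR). At CT2 Tef had 68.0, 71.1 and 85.2 CPM in LKO, against 13.3, 16.2 and 22.4 CPM in F. LKO was 4.32-fold higher with no overlap (2.11 ± 0.18, adjusted p = 1.93e-06, edgeR). No call on Tef in these comparisons was lost when any 1 library was left out.

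Hlf, the third PAR-bZIP activator, was not called in either knockout at either time. At CT14 Hlf had 29.9, 29.2 and 19.2 CPM in KO, against 31.8, 45.9 and 37.4 CPM in WT, and 35.7, 34.1 and 38 CPM in LKO, against 53.5, 39.0 and 45.3 CPM in F. At CT2 Hlf had 21.7, 24 and 25.6 CPM in KO, against 20, 15 and 21.1 CPM in WT, and 16.9, 17.1 and 24.4 CPM in LKO, against 16.1, 16.2 and 13.5 CPM in F. The KO and LKO libraries lay below their controls at CT14 and above them at CT2 without overlap, with differences of -0.56 ± 0.19 and -0.35 ± 0.19 at CT14 and 0.34 ± 0.19 and 0.35 ± 0.19 at CT2 (adjusted p = 0.106 and 0.565, then 0.663 and 0.645, edgeR).

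Nfil3, the D-box repressor, was not called in either knockout at either time. At CT14 Nfil3 had 28.4, 27.8 and 29.9 CPM in KO, against 25.5, 21.4 and 20 CPM in WT. At CT2 Nfil3 had 24.6, 22.4 and 21.4 CPM in KO, against 33.7, 36.1 and 38.5 CPM in WT. KO lay above WT at CT14 and below it at CT2, each with no overlap and no call (0.37 ± 0.18, adjusted p = 0.302 and -0.67 ± 0.18, adjusted p = 0.126, edgeR). In LKO it had 20.1, 23.1 and 24.9 CPM against 18.0, 21.8 and 23.8 CPM in F at CT14, and 39.6, 35.0 and 41.5 CPM against 36.3, 70.5 and 46.1 CPM at CT2. These groups overlapped at both times, with differences of 0.10 ± 0.18 (95% interval -0.27 to 0.47) and -0.40 ± 0.18 (95% interval -0.77 to -0.03), and neither was called (adjusted p = 0.992 and 0.499, edgeR). Counted over the 7 members, the 3 libraries of each group did not overlap for 6 at CT14 and 6 at CT2 in KO against WT, beside 25.9% and 14% of all genes. In LKO against F this held for 4 at CT14 and 5 at CT2, beside 23.6% and 10.6%.

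The second question of the design was how each factor differed between CT14 and CT2 within a genotype. In WT, Dbp was 57.7-fold higher at CT14 than at CT2 (5.85 ± 0.62), Tef 7.39-fold (2.89 ± 0.19), Nr1d2 5.60-fold (2.49 ± 0.32) and Hlf 2.05-fold (1.04 ± 0.19), while Nfil3 was lower (-0.70 ± 0.18). Those 5 of 7 members were called in WT, where 2.54% of all genes were called, 1.1% higher and 1.44% lower. The same 5 were called in the same directions in F, where 2.66% of all genes were called, 1.33% higher and 1.33% lower. In F the differences were 5.26 ± 0.61 for Dbp, 3.07 ± 0.19 for Tef, 2.07 ± 0.31 for Nr1d2, 1.59 ± 0.20 for Hlf and -1.27 ± 0.18 for Nfil3. Adjusted p for the 4 that rose was at most 0.00338, and for Nfil3 0.0389 in WT and 0.00042 in F (edgeR). The Nfil3 call in WT was lost without WT CT14 replicate 2 or 3 or any 1 WT CT2 library (adjusted p = 0.074 to 0.172, edgeR). The Hlf call in WT was lost with limma on log2(TPM + 0.1) and log2(TPM + 1), at 0.66 and 0.61 (adjusted p = 0.0936 and 0.0935). Nr1d1 overlapped between the times and was not called in either (0.82 ± 0.51, adjusted p = 0.609 in WT and -0.14 ± 0.51, adjusted p = 0.95 in F, edgeR), and neither was Rora. The members not overlapping between times numbered 5 in WT and 5 in F, beside 21% and 19.2% of all genes.

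In KO, 0 of 7 members were called between CT14 and CT2, beside 0% of all genes. No member reached an unadjusted p under 0.05 there, although 753 genes did, and DESeq2 called 37 genes and limma 0, with no member among them. The KO time difference was 0.53 ± 0.31 (95% interval -0.10 to 1.17) for Nr1d2, -0.27 ± 0.50 (-1.32 to 0.79) for Dbp, -0.22 ± 0.18 (-0.59 to 0.14) for Tef and 0.33 ± 0.18 (-0.04 to 0.70) for Nfil3. Only Nfil3 separated the times in KO, 1 of 7 beside 7.63% of all genes. In LKO, 2 of 7 were called, Hlf higher at CT14 (0.88 ± 0.19, adjusted p = 0.0373, edgeR) and Nfil3 lower (-0.77 ± 0.18, adjusted p = 0.0478, edgeR), where 0.848% of all genes were called, 0.444% higher and 0.405% lower. Dbp, at 1.06 ± 0.50, Nr1d2, at 0.85 ± 0.30, and Tef, at 0.34 ± 0.18, were not called in LKO, although all 3 libraries of CT14 lay above those of CT2 for each. The members not overlapping were 5 of 7 in LKO, beside 20.7%. Neither LKO call is firm: Nfil3 was lost without any 1 of the 6 libraries (adjusted p = 0.102 to 0.199, edgeR), and Hlf without any except LKO CT2 replicate 3 (0.0933 to 0.193). With 1 library left out, the number of all genes called in this comparison also fell, from 174 to between 10 and 59. The differences themselves stayed at -0.84 to -0.69 for Nfil3 and at 0.79 to 1.07 for Hlf.

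**Figure D3:**
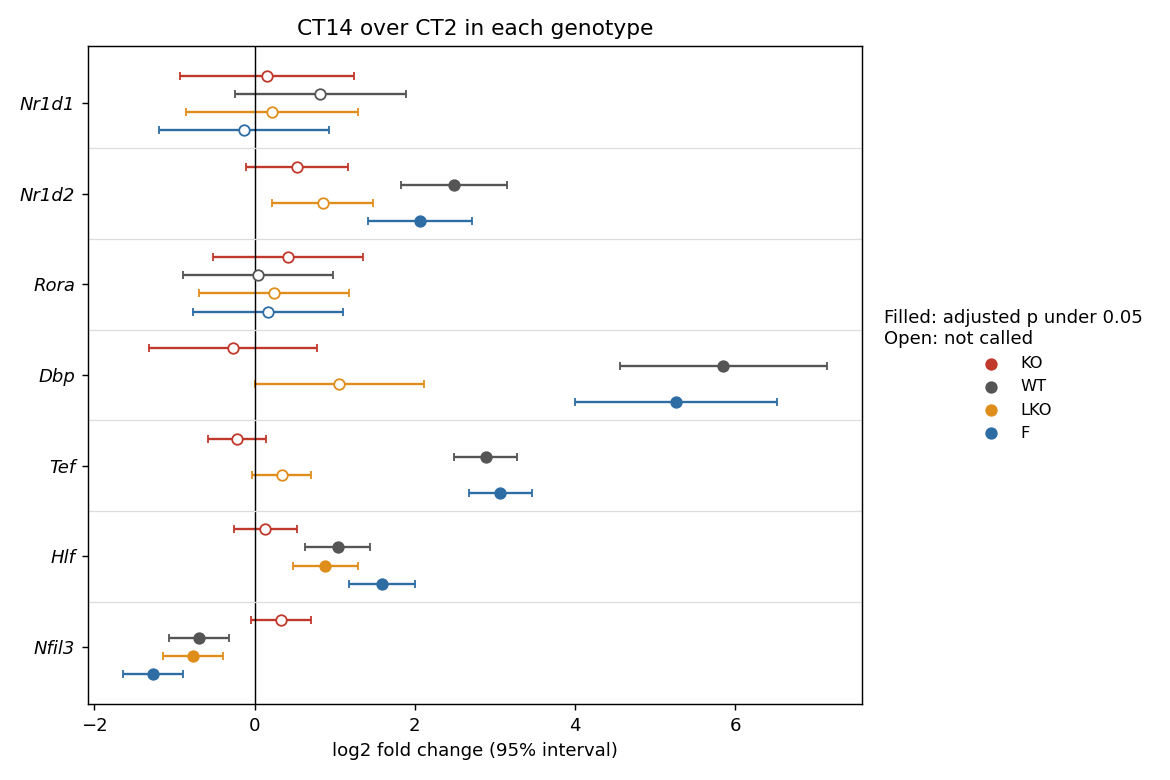
Log2 fold change of CT14 over CT2 (x axis) for each factor (rows) in KO, WT, LKO and F, with 95% intervals from edgeR on 3 libraries a group. Filled points were called. The KO intervals span 0 for all 7 factors, while Dbp, Tef and Nr1d2 in WT and F lie well above 0.

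Tested directly, the time difference in KO was smaller than in WT for 3 of 7 members, where 0.799% of all genes were called, 0.297% lower. The difference between the 2 time differences was -6.12 ± 0.77 for Dbp (adjusted p = 0.00024), -3.11 ± 0.25 for Tef (adjusted p = 6.63e-07) and -1.95 ± 0.43 for Nr1d2 (adjusted p = 0.0311, all edgeR). The Nr1d2 call was lost without any 1 of 10 of the 12 libraries, the exceptions being KO CT14 replicate 1 and WT CT14 replicate 3 (adjusted p = 0.0571 to 0.0866, edgeR), and with limma on log2(TPM + 0.1) (0.0601). Nfil3 had a difference of 1.03 ± 0.25 that was not called (adjusted p = 0.0617, edgeR), but was called by DESeq2 (adjusted p = 0.0111), and in edgeR among genes with a mean of at least 1 CPM (0.0442) or with only the compared groups fitted (0.0107). The others were not called, Hlf at -0.90 ± 0.27 (adjusted p = 0.173), Nr1d1 at -0.67 ± 0.73 (0.924) and Rora at 0.38 ± 0.63 (0.98, edgeR). Between LKO and F, 2 of 7 differed, Dbp by -4.20 ± 0.75 (adjusted p = 0.0219) and Tef by -2.73 ± 0.25 (adjusted p = 6.08e-06, edgeR), where 0.112% of all genes were called, 0.0585% lower. Nr1d2 at -1.22 ± 0.43, Hlf at -0.71 ± 0.27 and Nfil3 at 0.50 ± 0.25 were not called (adjusted p = 0.516, 0.602 and 0.823, edgeR), nor were Nr1d1 and Rora. The Dbp call was lost without F CT2 replicate 1 or 2, LKO CT2 replicate 1 or 2, or any 1 LKO CT14 library (adjusted p = 0.0509 to 0.0999, edgeR).

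The whole-body and liver-specific deletions were also set against each other, KO effect minus LKO effect. At CT14, 0 of 7 members were called, beside 0.0731% of all genes, and 4 members and 1663 genes had an unadjusted p under 0.05 in edgeR. The 4 members were Nr1d1 (-1.93, 95% interval -3.45 to -0.41), Nr1d2 (-1.63, -2.52 to -0.74), Dbp (-2.22, -3.71 to -0.74) and Tef (-0.62, -1.14 to -0.11), with adjusted p from 0.202 to 0.469 (edgeR). Without F CT14 replicate 1 the Dbp difference was -3.21 and called (adjusted p = 0.0408, edgeR). DESeq2 called Nr1d2 (adjusted p = 0.0233), among 208 genes. At CT2, 0 of 7 were called, beside 0% of all genes, with 0 members and 1130 genes at an unadjusted p under 0.05 in edgeR, and 63 genes called by DESeq2 and 1 by limma. The time difference in LKO minus that in KO was called for 0 of 7, beside 0.0341% of all genes. There 3 members and 1840 genes had an unadjusted p under 0.05 in edgeR. Nfil3 had the lowest p of the members (-1.10 ± 0.25, adjusted p = 0.153, edgeR), and DESeq2 called it (-1.12, adjusted p = 0.00886), among 212 genes.

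The 2 control genotypes were compared in the same way. In F minus WT, averaged over both times, 0 of 7 members were called, beside 2.54% of all genes, and 0 had an unadjusted p under 0.05 in edgeR, while DESeq2 and limma also called no member. The largest difference was in Dbp, -0.42 ± 0.37 (95% interval -1.19 to 0.34), and that of Tef was -0.24 ± 0.12 (-0.50 to 0.02). The time difference in F minus that in WT was called for 0 of 7, beside 0% of all genes. There 1 member, Nfil3, and 993 genes had an unadjusted p under 0.05 in edgeR, and DESeq2 called 26 genes and limma 0.

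Ordered by group mean, the factors fell into different sequences. Dbp and Tef were highest in WT and F at CT14, lowest in WT and F at CT2, and all 4 knockout groups lay between by their means, with Dbp overlapping in F and LKO at CT14. The knockout groups of Dbp ran from 6.39 CPM in LKO at CT14 through 3.06 CPM in LKO at CT2 and 2.70 CPM in KO at CT2 to 2.25 CPM in KO at CT14, and the last 3 overlapped. Nr1d2 stood at 49.7 CPM in WT and 37.5 CPM in F at CT14, both clear of their neighbours, while F at CT2, WT at CT2 and LKO at CT14 (8.97, 8.87 and 8.46 CPM) overlapped. Across the groups the highest mean was 63.2 times the lowest for Dbp, 19.9 times for Nr1d2, 12.2 times for Nr1d1, 9.31 times for Tef, 3 times for Hlf, 2.41 times for Nfil3 and 1.34 times for Rora.

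Because the activators and the repressor of D-boxes compete for the same sites, their summed levels per length were set against each other in TPM. The log2 ratio of Dbp, Tef and Hlf together over Nfil3 was 0.83 ± 0.31 in KO and 2.61 ± 0.28 in WT at CT14, and 1.28 ± 0.25 in KO and -0.66 ± 0.37 in WT at CT2 (SD, n = 3 each). In LKO it was 1.73 ± 0.15, against 2.45 ± 0.62 in F, at CT14, and 0.45 ± 0.15, against -1.53 ± 0.44 in F, at CT2. The control livers thus had more Nfil3 than activator RNA at CT2 and more activator RNA at CT14, whereas all knockout libraries stayed above 0 at both times. Tef made up 71.1% of the activator TPM in KO and 61.3% in WT at CT14, and 75.0% in KO and 51.4% in WT at CT2. Dbp made up 4.94% in KO and 25.6% in WT at CT14, and 5.71% in KO and 2.53% in WT at CT2. These ratios and shares are descriptions with no test.

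For ROREs the same kind of ratio was taken of Rora over Nr1d1 and Nr1d2 together, in TPM. Other ROR genes were not counted, so it does not give the balance of all ROR RNA against REV-ERB RNA. It was 1.66 ± 0.71 in KO and -2.23 ± 0.07 in WT at CT14, and 1.57 ± 0.13 in KO and -0.66 ± 0.51 in WT at CT2, so Rora RNA exceeded REV-ERB RNA in every KO library and in no WT library. In LKO it was 0.22 ± 0.14, against -1.66 ± 0.63 in F, at CT14, and 0.26 ± 0.95, against -1.28 ± 1.97 in F, at CT2. The CT2 spread of LKO and F comes with the low Rora of the 2 libraries named above, at -0.77 in LKO and -3.55 in F. That F library, replicate 3, also had the highest sum of Nr1d1 and Nr1d2 in its group, 19.1 TPM against 10.9 and 7.7 TPM.

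**Figure D4:**
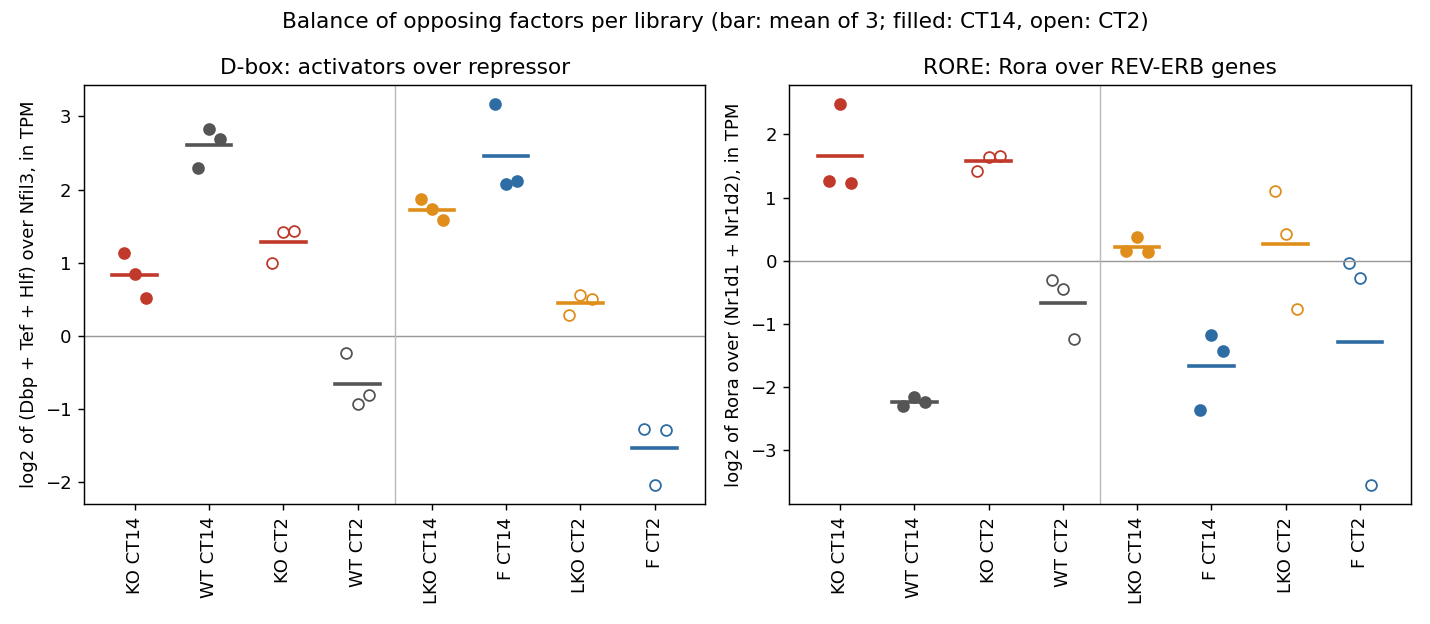
Log2 ratio in TPM (y axes) of Dbp, Tef and Hlf over Nfil3 (left) and of Rora over Nr1d1 and Nr1d2 (right) in each library, by group (x axis), with bars at the mean of 3. At left the WT and F means change sign between CT14 and CT2 while KO and LKO stay above 0, and at right KO is above 0 and WT below 0 at both times.

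Genes known from work on these factors and their elements were read from lists. Their counts stand beside 5.31% of all genes called in KO against WT at CT14 and 0.517% at CT2, and 1.73% and 0.4% in LKO against F, with medians over all genes of -0.01 to 0.01. Among the RORE clock genes, Npas2, a CLOCK paralog, averaged 25.2 ± 1.92 CPM in KO and 0.0571 ± 0.019 CPM in WT at CT14 (adjusted p = 4.66e-11, edgeR). Cry1, a repressor of CLOCK and BMAL1, averaged 60.2 ± 7.18 CPM in KO and 26.3 ± 4 CPM in WT (adjusted p = 0.000369, edgeR). At CT2, Cry1 and Npas2 were higher in KO (1.24 ± 0.19 and 1.31 ± 0.28, adjusted p = 0.00152 and 0.0353, edgeR) and Bmal1, the deleted gene, was lower. In LKO, Npas2 and Cry1 were higher than in F at CT14 (7.30 ± 0.38 and 1.16 ± 0.19, adjusted p = 3.42e-10 and 0.00105, edgeR). At CT2, Cry1 was higher (1.83 ± 0.19, adjusted p = 2.98e-05, edgeR) and Bmal1 was lower.

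Of 10 metabolic genes known from work on REV-ERBs or RORs, 5 were higher and 1 lower in KO than WT at CT14. This stood beside 5.31% of all genes called, and the median was 1.33 against 0.01. Lpl, lipoprotein lipase, averaged 209 ± 51.9 CPM in KO and 11.6 ± 3.80 CPM in WT (4.17 ± 0.40, adjusted p = 1.95e-06, edgeR). Elovl3, a fatty acid elongase, averaged 407 ± 233 CPM in KO and 24.7 ± 7.89 CPM in WT (adjusted p = 0.00229), and Avpr1a, a vasopressin receptor, 78.0 ± 3.85 and 23.1 ± 7.49 CPM (adjusted p = 8.15e-05, edgeR). Plin2, a lipid droplet coat protein, was 1.88-fold higher (adjusted p = 0.00382, edgeR). In LKO against F at CT14, Lpl (207 ± 24.3 and 9.83 ± 1.39 CPM) and Elovl3 (1020 ± 167 and 30.4 ± 7.84 CPM) were higher, 2 of 10, with a median of 1.04. At CT2, Lpl alone was called, 12.7-fold higher in KO and 11.4-fold higher in LKO, and the medians were -0.14 and 0.63.

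Of 4 clock genes with D-boxes, Per2 and Per3, repressors of CLOCK and BMAL1, were lower in KO at CT14 and higher at CT2. Per3 averaged 3.53 ± 0.58 CPM in KO and 23.1 ± 3.72 CPM in WT at CT14 (adjusted p = 3.52e-05), and 3.32 ± 1.32 CPM in KO and 0.864 ± 0.29 CPM in WT at CT2 (adjusted p = 0.00576, edgeR). Per2 averaged 21.9 ± 11.5 CPM in KO and 60.1 ± 9.76 CPM in WT at CT14, and 26.4 ± 3.66 CPM in KO and 4.49 ± 0.92 CPM in WT at CT2 (adjusted p = 0.0133 and 0.000796, edgeR), and Cry1 was higher at both. So 1 was higher and 2 lower at CT14 (median -1.23), and 3 were higher at CT2 (median 2.07). In LKO, Per3 was lower at CT14 and higher at CT2 (-1.74 ± 0.32 and 2.03 ± 0.34), Cry1 was higher at both, and the medians were -0.33 and 1.73. The Period genes also carry E-boxes. Of 8 E-box clock genes, 5 were lower in KO at CT14, among them Usp2 (5.95 ± 1.35 CPM, against 58.8 ± 7.08 CPM in WT) and Ciart (0.157 ± 0.087 CPM, against 11.5 ± 5.13 CPM in WT), and 4 were higher at CT2, with medians of -2.08 and 2.07. In LKO, 1 of the 8 was lower at CT14 and 2 were higher at CT2.

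Of 14 output genes of the PAR-bZIP factors and NFIL3, 7 were lower and 1 higher in KO than WT at CT14, beside 5.31% of all genes called, with a median of -0.80 against 0.01. Por, the electron donor of microsomal cytochromes P450, averaged 180 ± 55.3 CPM in KO and 696 ± 95.4 CPM in WT (-1.95 ± 0.34, adjusted p = 0.00118, edgeR). Ces3b, a carboxylesterase, was 2.38-fold lower (adjusted p = 0.00165, edgeR). Cyp2a5 and Cyp2a4, coumarin and steroid hydroxylases, averaged 64.7 ± 12.2 and 0.302 ± 0.058 CPM in KO, against 2080 ± 894 and 59.6 ± 25.0 CPM in WT, but the split of reads between these near-identical paralogs is uncertain. In LKO against F at CT14, 2 of 14 were lower, Por (148 ± 31.2 and 497 ± 66.0 CPM, adjusted p = 0.00635, edgeR) and Cyp2a5, with a median of -0.19. At CT2, 1 of 14 was called in KO, Cyp2a4, lower, and 0 of 14 in LKO, where 1 had an unadjusted p under 0.05. The 6 genes of the REV-ERB corepressor complex, such as Ncor1 and Hdac3, gave 0 calls in KO and LKO at either time, with 1 unadjusted p under 0.05 in KO at CT14 and medians between -0.13 and 0.10.

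**Figure D5:**
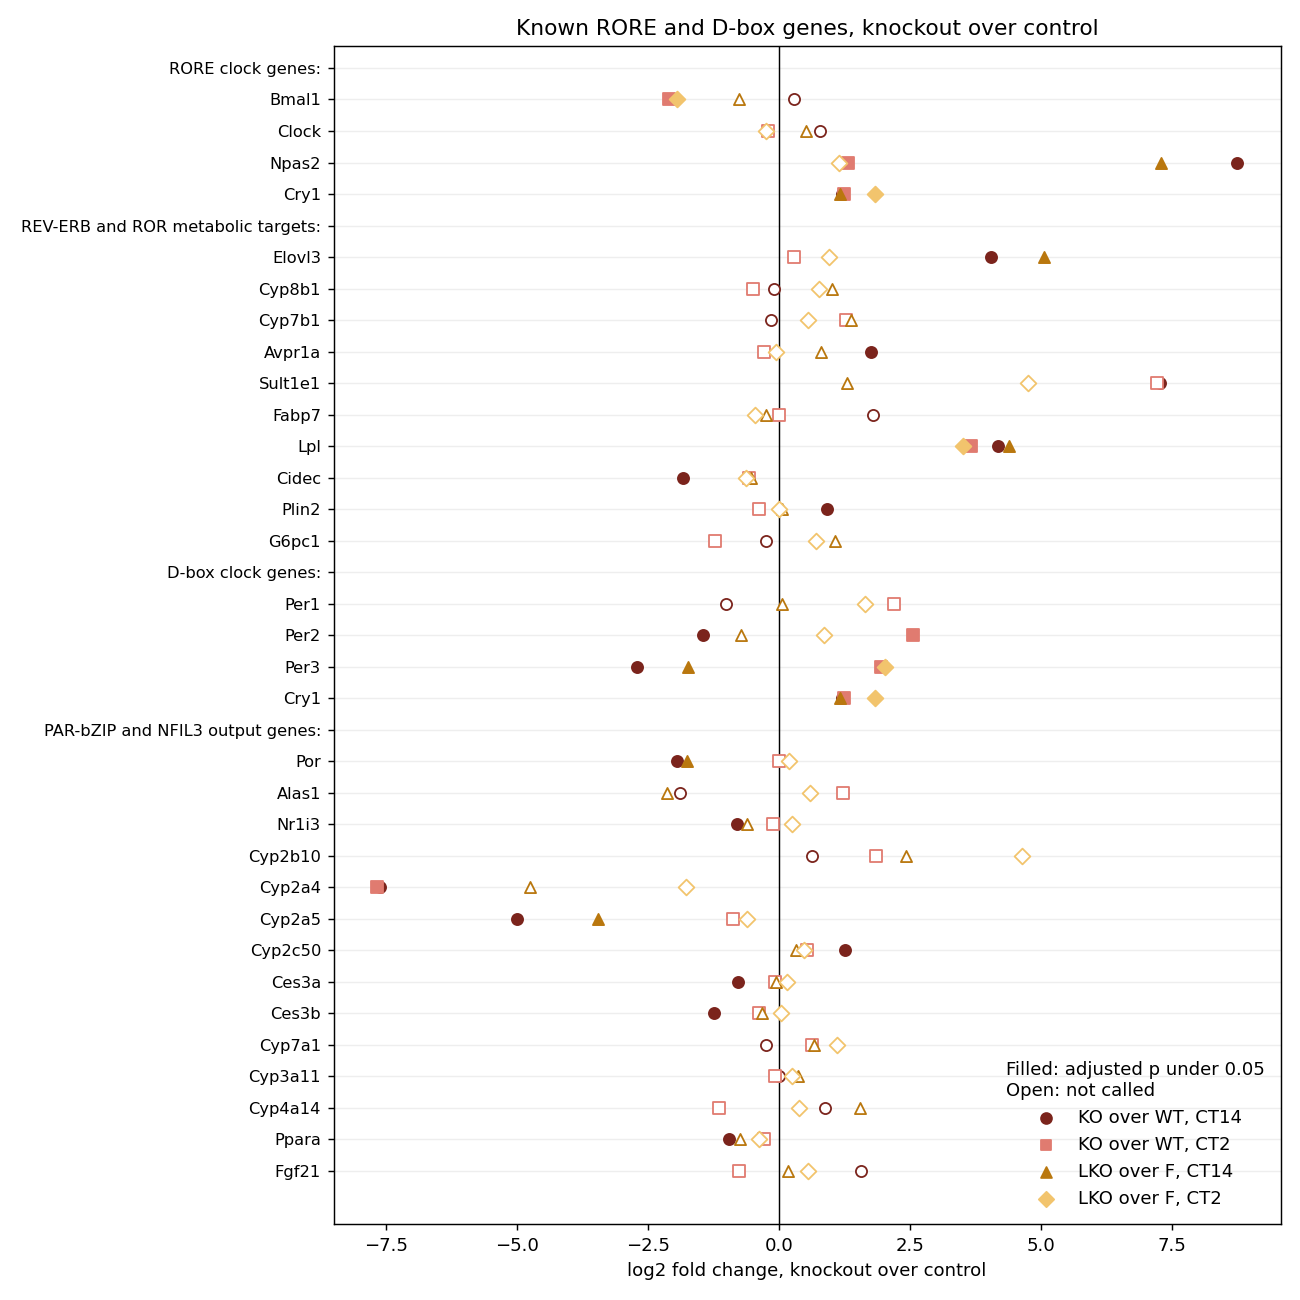
Log2 fold change (x axis) of genes in 4 lists (rows), KO over WT and LKO over F at CT14 and CT2. Filled symbols were called in edgeR. Lpl is far above 0 in all 4 comparisons, Npas2 is far above 0 at CT14, and Por and Per3 lie below 0 at CT14 in both knockouts.

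The genes whose log2 CPM followed each member most closely were sought among 12744 genes over the 24 libraries, as a description. The libraries of a group share genotype and time, so these values reflect 8 groups more than 24 independent points. Dbp was most like Usp2 (r = 0.947), Per3 (0.937) and Tef (0.935), Tef most like Wee1 (0.946), Dbp (0.935) and Per3 (0.924), and Hlf most like Usp2 (0.914), Tns1 (0.911) and Xpnpep3 (0.903). Nr1d2 was most like Gys2, liver glycogen synthase (0.921), Col27a1 (0.913) and Homer2 (0.903), and Nr1d1 most like Sox12 (0.867), Il17rb (0.851) and Slc16a11 (0.840). The values for Nfil3 over the 24 libraries were lower, with Mfsd9 and Camk2g at 0.800 and Dbndd2 at 0.790. Over the 8 group means the values for these genes were 0.925 to 0.986. On that basis none of the genes named for Nr1d2, Hlf and Nfil3 was among the 3 closest. Without the 3 libraries that stood apart, Sox12, Il17rb and Slc16a11 ranked 9, 14 and 38 for Nr1d1. Mfsd9, Camk2g and Dbndd2 then ranked 22, 10 and 15 for Nfil3, while the genes named for Nr1d2, Dbp, Tef and Hlf ranked 1 to 5.

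Among the genes closest to Rora were Jmjd1c (0.961) and Taok1 (0.959), and this rested on 2 libraries. In F CT2 replicate 3 and LKO CT2 replicate 3, Jmjd1c had 5.54 and 9.39 CPM and Rora 7.35 and 13.2 CPM. The remaining 22 libraries held 17.1 to 33.4 CPM of Jmjd1c and 25.2 to 52.5 CPM of Rora. Without the 3 libraries that stood apart the r values were 0.664 and 0.644, and these genes ranked 36 and 51. Among the members themselves, r over 24 libraries was 0.93 for Dbp with Tef, 0.84 for Dbp with Hlf, 0.83 for Tef with Hlf and 0.77 for Nr1d1 with Nr1d2. Nfil3 ran against the activators, at -0.73 with Dbp, -0.79 with Tef and -0.80 with Hlf, and Nr1d1 with Tef stood at -0.04.

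In the authors' deposited table of their own comparisons, 27 of 56 member results had an adjusted p under 0.05, against 23 here, and all 23 were among them with the same sign. The log2 fold changes differed by at most 0.04. The share of all genes called in the authors' deposited table was not counted, so these member counts have no background to stand beside. The 4 called only in the authors' deposited table were Nfil3 in KO against WT at CT2 (-0.66, adjusted p = 0.0256), Nr1d1 in LKO against F at CT2 (-1.89, adjusted p = 0.0239), Tef in LKO against F at CT14 (-0.62, adjusted p = 0.00136) and Dbp in CT14 against CT2 in LKO (1.06, adjusted p = 0.0015).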

How the data were processed

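Liver RNA of 24 libraries was grouped by genotype and time from the labels. The authors deposited estimated counts per gene, whole numbers with an excess of multiples of 4 (1.18 to 1.42 times the frequency of adjacent values), and TPM. The authors also deposited log2 fold changes and p-values of their own comparisons. The submitters' processing notes name GRCm39, fastp 0.23.2, HISAT2 2.2.1 and StringTie 1.3.1. Release of the annotation and strand setting: not given in the sources used here.

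Counts were rounded and tested with edgeR 4.0.16 (R 4.3.3): filterByExpr on 8 groups (minimum count 10, minimum total 15), TMM, and 1 robust quasi-likelihood fit of 8 group means to 24 libraries with 16 residual degrees of freedom. Benjamini-Hochberg adjustment ran over 20514 genes in each of 15 comparisons. The fit was checked on simulated data. SE is the absolute log2 fold change over the square root of F. CPM is count over TMM-scaled total. Total counts of 88995259 to 131544733 are estimates, not fragments.

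All 7 members were tested in every comparison. Of each of 6 lists, up to 4 called genes are named in order of adjusted p, and for each member the 3 genes of highest r among those with a mean of at least 1 CPM, except that some of the genes these rules name are not reported here. Members and lists were chosen with earlier results of these data known. The reference genome here is GRCm38, used for names, overlapping genes and RefSeq promoters. Alternatives were RLE scaling, DESeq2 1.42.0, limma 3.58.1 on log2(TPM + 0.1) and log2(TPM + 1), other filters, counts divided by 4, fits of only the groups compared, a replicate block, and libraries left out. The likeness values without 3 libraries were added after seeing the data. Deviations of same-numbered libraries from their group means had r over 0.1 in all 3 pairs only between LKO and F at CT2, at 0.143 to 0.312. The 0.312 there was between the replicates 3 that stood apart, and LKO replicate 1 with F replicate 2 had r of 0.188. Elsewhere same-numbered r was -0.146 to 0.186, with 2 of 3 pairs over 0.1 between CT14 and CT2 in F.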

Additional observations from a re-analysis of the deposited data

Results flagged for a closer look

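The CT14 against CT2 difference was itself different between genotypes for 3 members, by the interaction term of the edgeR fit. For Dbp the KO difference minus the WT difference was -6.12 on the log2 scale, and the LKO difference minus the F difference was -4.20. The same quantities for Tef were -3.11 and -2.73. In Nr1d2 the KO difference minus the WT difference was -1.95, while the LKO difference minus the F difference was -1.22 and not called (adjusted p = 0.516, edgeR). The Dbp call for LKO minus F and the Nr1d2 call for KO minus WT were lost without certain single libraries, as given above. With limma on log2(TPM + 1) the Dbp value for LKO minus F was -2.42 and not called (adjusted p = 0.095).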

How the results depend on the processing

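No direction of a called member result turned under any alternative, and RLE scaling and counts divided by 4 changed 0 of 105 member results. The number of members called moved by over 1.5 times, or to or from 0, as follows. For KO against WT at CT2 it was 2 with limma on log2(TPM + 1), with only the compared groups in the fit, without 2 KO libraries that held spermatid markers and without the 3 CT2 libraries that stood apart, and 1 to 4 with 1 library left out. For LKO against F at CT2 it was 0 with only the compared groups, 1 without the 2 F libraries with pancreatic transcripts, 1 without the 3 CT2 libraries, and 1 to 2 with 1 library left out. For LKO against F at CT14 it was 2 with DESeq2, 2 with only the compared groups, and 1 to 2 with 1 library left out. For CT14 against CT2 in LKO it was 1 with either limma setting, 0 with no filter, 0 with only the compared groups, 0 with the replicate block, 1 without the 3 CT2 libraries, and 0 to 1 with 1 library left out. In F it was 3 with only the compared groups. For the time difference in LKO minus F it was 1 with limma on log2(TPM + 1), with only the compared groups, without the 2 F libraries and without the 3 CT2 libraries, and 1 to 2 with 1 library left out. For the time difference in LKO minus KO and for the KO effect minus the LKO effect at CT14 it was 1 with DESeq2, and the comparison of KO and LKO effects had 0 to 1 with 1 library left out. Smaller moves were to 5 with DESeq2 and 3 with no filter for KO against WT at CT2, to 3 with DESeq2 for LKO against F at CT2, to 4 with either limma setting, no filter, the replicate block or 1 library left out for CT14 against CT2 in WT, and for the time difference in KO minus WT to 4 with DESeq2, a mean of at least 1 CPM or only the compared groups, and to 2 with limma on log2(TPM + 0.1), without the 2 KO libraries or with 1 library left out. The fits of only the compared groups have fewer samples and so fewer residual degrees of freedom. The cause of these changes was not tested for any alternative.

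The replicate block changed 3 of 105 member results by ending a call, all between CT14 and CT2: Hlf and Nfil3 in LKO (adjusted p = 0.0567 and 0.0606) and Nfil3 in WT (adjusted p = 0.0526, edgeR). It changed no other call. Nothing in the labels links the libraries of these comparisons except a shared replicate number. DESeq2 added 6 member calls and ended 0. Over all genes, DESeq2 called more in each comparison, such as 1721 against 1089 for KO against WT at CT14, 371 against 106 at CT2, 756 against 354 for LKO against F at CT14 and 410 against 82 at CT2.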
